A study of Komagataella pastoris with 60 samples.

Results

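The 7 genes described here encode enzymes of glycolysis in the methylotrophic yeast *Pichia pastoris* (labelled Komagataella pastoris), and they were chosen by name out of the 5319 host genes that every library counts. They are *PGI1* (Pipas_chr3_0456), *TPI1* (Pipas_chr3_0951), *TDH3* (Pipas_chr2-1_0437), *PGK1* (Pipas_chr1-4_0292), *GPM1* (Pipas_chr3_0826), *ENO1* (Pipas_chr3_0082) and *CDC19* (Pipas_chr2-1_0769). The names of these IDs came with the selection, because the deposited tables give IDs only and 0 of the IDs matched the reference gene table used here. The choice went by name, with earlier results of these data known. Cultures of 4 deletion strains were set against the wild-type strain (wt): *rps7*∆ and *rps25*∆, which lack a protein of the small ribosomal subunit, and *rpl38*∆ and *rpl9a*∆, which lack one of the large subunit. All 5 strains, wt included, were derived from GS115, carried a gene for a *Citrobacter* phytase behind the methanol-induced *AOX1* promoter, and were grown in methanol medium for 24, 48 or 72 h. The selection marker had been removed again from the deletants. Each deletion is represented by 1 strain, so a deletion and its clone cannot be told apart. Every sample was treated with cycloheximide and split, so that mRNA-seq measured the total mRNA and RNC-seq the mRNA bound in ribosome–nascent chain complexes (RNC-mRNA). With 2 biological replicates of each strain, time and assay there were 60 libraries.

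Glycolysis turns glucose 6-phosphate into pyruvate in the cytosol, yielding ATP and NADH. Most of its steps are reversible and also serve gluconeogenesis, whereas the last step, pyruvate kinase, runs only toward pyruvate. On methanol, the xylulose monophosphate pathway delivers its carbon as glyceraldehyde 3-phosphate, a glycolytic intermediate, so cells on this substrate use the triose and hexose phosphate steps to rebuild sugars. The enzymes are described in the order of the pathway, with roles known from *Saccharomyces cerevisiae*.

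The libraries held 2970406 to 15476958 host gene reads in mRNA and 1508702 to 13532265 in RNC-mRNA, and the lowest count of any of the 7 genes in any library was 621 reads. All 7 passed the filter on low counts in both assays. Values are given as CPM, host gene reads of the library scaled to 1000000, for replicates 1 and 2 in that order. Fold changes are log2 values from edgeR's quasi-likelihood model with TMM scaling, so they are relative to the typical gene of a library. Scaling by host gene reads alone (library size), in place of TMM, moved the median of all genes between strain and wt at 1 time by −0.30 to 0.71 in mRNA and by −0.15 to 1.13 in RNC-mRNA, on the log2 scale, and folds read from CPM differ by this much. A gene was called higher or lower at an adjusted p under 0.05 after Benjamini-Hochberg adjustment over all genes tested, 5228 in mRNA and 5209 in RNC-mRNA. The deleted gene had at most 16 mRNA reads in any library of its own strain and at least 22 in every other library. The RNC-mRNA library of *rpl9a*∆ at 72 h labelled replicate 2 stood apart. For this, the log2 CPM (TMM) of each gene was taken as a deviation from its mean over the libraries of the assay. The deviations of this library correlated over all genes at −0.37 with those of the mRNA library of its own group that was most like it. In the other 29 RNC-mRNA libraries this value was at least 0.588. Counts and fold changes of the 7 genes that rest on it are given without it as well, whereas CPM values and shares of all genes include it. Other replicate pairs also differed over all genes. The log2 counts of the 2 replicates correlated at 0.933 in *rpl9a*∆ mRNA at 48 h and 0.930 in its RNC-mRNA at 48 h. The value was 0.961 in *rpl38*∆ RNC-mRNA at 72 h and 0.867 in *rpl9a*∆ RNC-mRNA at 72 h. In every remaining pair it was at least 0.974.

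As a group, the 7 genes took a smaller share of the transcriptome in the deletion strains than in wt, except in *rpl9a*∆ at 24 h, where the share was larger in mRNA and within the spread of the libraries in RNC-mRNA. These are shares of the RNA of a whole culture, in which fewer cells with an mRNA and less of it per cell cannot be told apart. In mRNA their summed reads made up 1.12%, 0.955% and 0.714% of host gene reads at 24, 48 and 72 h in *rpl38*∆. The share in *rpl9a*∆ was 2.02%, 0.990% and 0.678%. It was 0.498%, 0.264% and 0.302% in *rps7*∆, the lowest of any strain. *rps25*∆ stayed near the same level at all times, with 0.513%, 0.587% and 0.474%. In wt the share was 1.66 ± 0.082%, 1.55 ± 0.045% and 1.59 ± 0.12% (mean ± SD, n = 2). The 7 genes thus held a steady share in wt and, in *rpl38*∆ and *rpl9a*∆, a share that was smaller at each later time. In RNC-mRNA the shares were larger in every group. At 24 h *rpl9a*∆ had 3.08 ± 0.31%, against 3.15 ± 0.066% in wt (mean ± SD, n = 2). The lowest group mean was 0.432% in *rps7*∆ at 48 h, and the highest was 4.04 ± 0.56% in wt at 72 h (mean ± SD, n = 2). *TDH3* had the most reads of the 7 in every library, with a mean of 22477 CPM in this last group, and weighs most in these sums. A single gene can differ from the sum, as did *GPM1*, whose mRNA was lower than in wt in *rpl9a*∆ at 24 h.

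**Figure D1:**
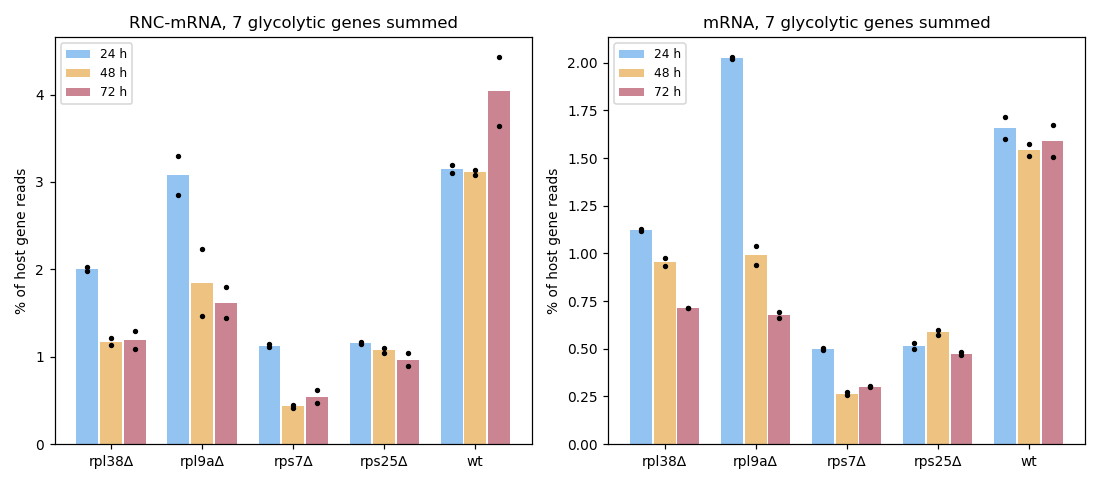
Summed reads of the 7 glycolytic genes as a percentage of host gene reads (linear axis from 0), in RNC-mRNA (left) and mRNA (right). Bars are the means of 2 libraries at 24, 48 and 72 h and dots are the libraries; in mRNA, *rps7*∆ stood between 0.264% and 0.498%, below wt at 1.55% to 1.66%.

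The comparison of each deletion strain with wt at the same time asked how loss of a ribosomal protein went with the level of these mRNAs. In mRNA, 69 of the 84 tests over 7 genes, 4 strains and 3 times were called lower and 7 higher. Of these calls, 2 of the lower (*GPM1* in *rpl9a*∆ at 24 h and *TPI1* in *rps25*∆ at 72 h) and 1 of the higher (*TPI1* in *rpl9a*∆ at 24 h) were lost when some single library was left out, with the values given under these genes. *rps25*∆ had 21 of 21 lower, where 26.5%, 28.2% and 24.3% of all genes were called lower at 24, 48 and 72 h. In *rps7*∆, 20 of 21 were lower, beside 30%, 32.2% and 32.6% of all genes. The exception was *TPI1* at 24 h. In *rpl38*∆, 15 of 21 were lower and 1 was higher, with 24%, 31.8% and 32% of all genes lower and 25% higher at 24 h, the time of the higher call. *rpl9a*∆ had 13 of 21 lower and 6 higher, and all 6 higher calls were at 24 h. There, 25% of all genes were called higher and 24.1% lower. At 48 and 72 h in *rpl9a*∆, 19.1% and 32.5% of all genes were called lower. With library size alone, 3 of the 6 higher calls in *rpl9a*∆ were lost, *TDH3* (0.50, 0.20 with library size alone), *ENO1* (0.51, 0.21) and *TPI1* (0.53, 0.22). The 4 strains share the wt libraries. Averaged over the 3 times, 25 of 28 mRNA tests were called lower, and the share of all genes lower was 36.9% in *rps7*∆, 32.7% in *rps25*∆, 28.8% in *rpl9a*∆ and 36.3% in *rpl38*∆.

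In RNC-mRNA, 71 of the 84 tests were called lower and 1 higher, and 11 of the lower calls and the higher call were lost when some single library was left out. All 21 tests were lower in *rps25*∆, where 13.5%, 13.9% and 14.5% of all genes were called lower at the 3 times. *rps7*∆ had 20 of 21 lower, again without *TPI1* at 24 h, beside 20.5%, 23% and 23.5% of all genes. In *rpl38*∆, 16 of 21 were lower, 2 of them at 24 h, with 12.9%, 22.8% and 23.3% of all genes lower. In *rpl9a*∆, 14 of 21 were lower, with 9.12%, 7.74% and 6.3% of all genes lower, and 1 was higher at 24 h, with 8.75% of all genes higher. Without the library that stood apart, 15 of 21 were lower in *rpl9a*∆ and 1 was higher. With library size alone 6 lower calls were lost, *TPI1* in *rpl38*∆ at 48 h (−0.39) and 72 h (−0.27), in *rpl9a*∆ at 48 h (−0.29) and in *rps25*∆ at 24 h (−0.35), *PGI1* in *rpl38*∆ at 48 h (−0.25) and *TDH3* in *rpl9a*∆ at 48 h (−0.72). The assays gave the same call, lower, for 67 of the 84 combinations of gene, strain and time. The share of all genes called lower in both assays was not computed. The only gene called higher in RNC-mRNA was *PGK1* in *rpl9a*∆ at 24 h, which was higher in mRNA too.

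**Figure D2:**
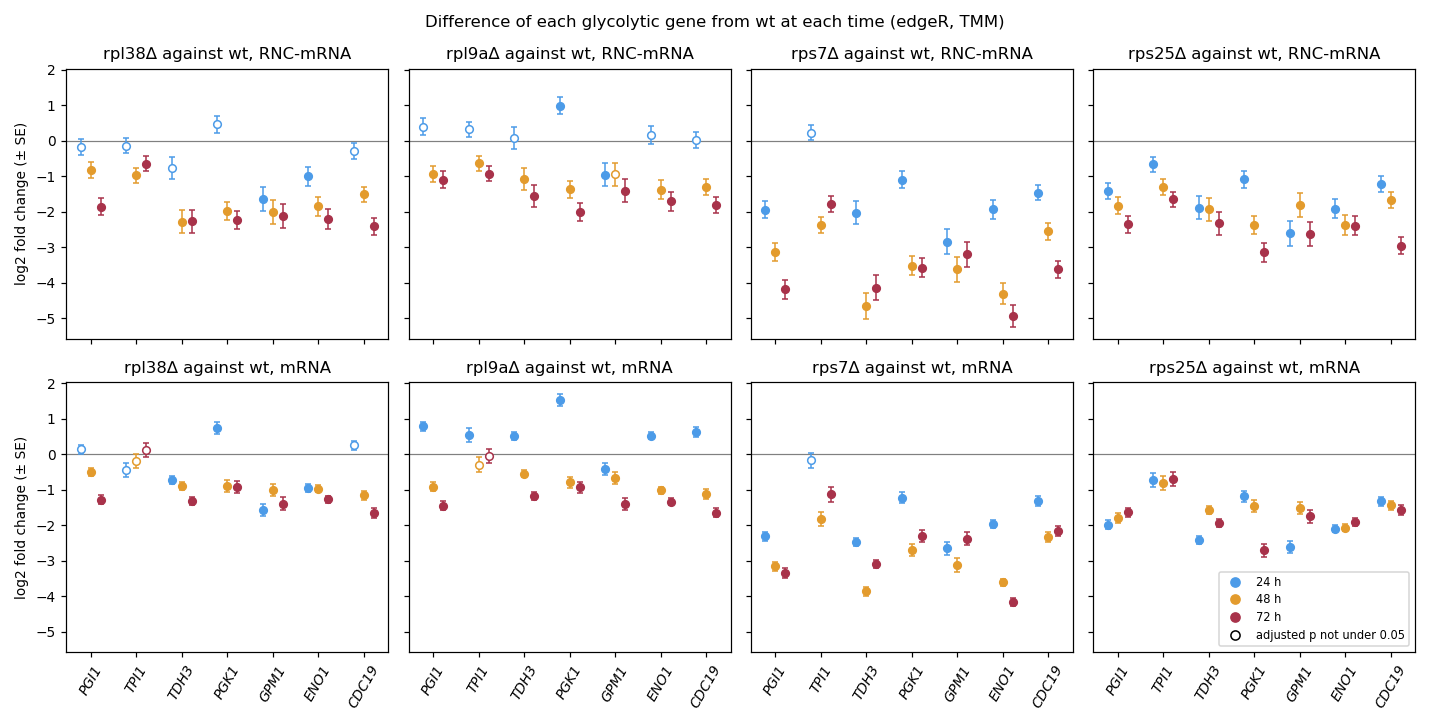
Log2 fold change of each glycolytic gene in each deletion strain against wt (± SE, edgeR with TMM), in RNC-mRNA (top) and mRNA (bottom), at 24 h (blue), 48 h (orange) and 72 h (red). Filled points have an adjusted p under 0.05; *rpl9a*∆ at 24 h is the only strain and time at which most genes lie above 0, with 6 of 7 called higher in mRNA and 1 of 7 in RNC-mRNA, and the lowest point is *ENO1* in *rps7*∆ RNC-mRNA at 72 h, at −4.93.

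*PGI1* encodes phosphoglucose isomerase, which interconverts glucose 6-phosphate and fructose 6-phosphate and is the only enzyme of the upper, hexose part of the pathway in the set. In mRNA, *rpl38*∆ had 1534 and 1524 CPM at 24 h, 1081 and 1069 CPM at 48 h and 793 and 676 CPM at 72 h. *rpl9a*∆ had 2158 and 2042 CPM at 24 h, 826.3 and 677 CPM at 48 h and 592 and 621 CPM at 72 h. Both strains began at or above the wt level and then dropped below it. In *rps7*∆ there were 369 and 347.7 CPM at 24 h, 249 and 249 CPM at 48 h and 233 and 231 CPM at 72 h. *rps25*∆ libraries gave 472 and 472 CPM at 24 h, 464 and 438 CPM at 48 h and 597 and 573 CPM at 72 h. The wt libraries had 1617 and 1388 CPM at 24 h, 1402 and 1326 CPM at 48 h and 1789 and 1602 CPM at 72 h, so that no *rps7*∆ or *rps25*∆ library reached any wt library. Averaged over the times, *PGI1* mRNA was lower than in wt, with a log2 fold change of −2.94 ± 0.08 (± SE) in *rps7*∆ and −1.81 ± 0.07 in *rps25*∆. In *rpl38*∆ the fold change was 0.14 ± 0.12 at 24 h, which was not called, and −1.28 ± 0.13 at 72 h, which was. In *rpl9a*∆ it was 0.79 ± 0.12 at 24 h, called higher, and −1.46 ± 0.13 at 72 h, called lower. In RNC-mRNA, *PGI1* had a higher level in wt at the last time, with 1835 and 1728 CPM at 72 h after 969.98 and 1015 CPM at 24 h. The log2 fold change of 0.76 was called (edgeR, Benjamini-Hochberg adjusted p = 0.036), but not on leaving out any 1 of the 4 libraries, which gave 0.72 to 0.80.

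*TPI1* encodes triose phosphate isomerase, which interconverts dihydroxyacetone phosphate and glyceraldehyde 3-phosphate, the triose that methanol assimilation delivers. It varied less than the other 6 genes. Its highest mRNA group mean was 2.44 times its lowest, whereas this ratio was 3.73 in *CDC19*, 6.09 in *GPM1*, 9.04 in *PGI1*, 11.7 in *TDH3*, 12.01 in *PGK1* and 15.1 in *ENO1*. In mRNA *rpl38*∆ had 425 and 456.3 CPM at 24 h, 676 and 659 CPM at 48 h and 571 and 564 CPM at 72 h. In *rpl9a*∆ *TPI1* stood at 721.7 and 799 CPM at 24 h, 749 and 386 CPM at 48 h and 483.5 and 453 CPM at 72 h, where the 2 libraries at 48 h differed widely. *rps7*∆ showed 678 and 685 CPM at 24 h, 308 and 318 CPM at 48 h and 317 and 306 CPM at 72 h. The level in *rps7*∆ at 24 h was that of wt, and at 48 and 72 h it was below all wt libraries. In *rps25*∆ there were 514 and 464 CPM at 24 h, 426 and 464 CPM at 48 h and 329 and 319 CPM at 72 h, against 631 and 672 CPM at 24 h, 649.8 and 710.3 CPM at 48 h and 529.6 and 458 CPM at 72 h in wt. *TPI1* mRNA was not called different from wt in *rpl38*∆ at any time, with log2 fold changes of −0.45 ± 0.20, −0.19 ± 0.20 and 0.12 ± 0.20 (± SE) at 24, 48 and 72 h, whereas with library size alone it was called lower at 24 h (−0.56). In *rps7*∆ it was not called at 24 h (−0.18 ± 0.20), and was lower at 48 h (−1.83 ± 0.21) and at 72 h (−1.14 ± 0.21). *TPI1* mRNA of *rps25*∆ was called lower at all 3 times, with −0.74, −0.82 and −0.70. The call at 72 h was lost without wt replicate 1 (−0.57) or *rps25*∆ replicate 2 (−0.67). In *rpl9a*∆ at 24 h it was called higher (0.53 ± 0.20), but not on leaving out any 1 of the 4 libraries, which gave 0.44 to 0.61. The RNC-mRNA of *TPI1* at 24 h was 1686 and 1662 CPM in *rps7*∆, the highest of any group, against 1199 and 1125 CPM in wt, a log2 fold change of 0.23 ± 0.21 that was not called, whereas with library size alone it was called higher, at 0.53. At 48 h it was 591 and 586 CPM in *rps7*∆, against 1333 and 1448 CPM in wt.

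*TDH3* encodes glyceraldehyde 3-phosphate dehydrogenase, which oxidizes the triose phosphate and makes NADH, and whose promoter is in wide use in this yeast for constitutive expression. It was the most abundant of the 7 in reads in every library. In mRNA *rpl38*∆ had 4462 and 4425 CPM at 24 h, 4297 and 4094 CPM at 48 h and 2859 and 2956 CPM at 72 h. In *rpl9a*∆ there were 8952 and 9294 CPM at 24 h, 4386 and 5681 CPM at 48 h and 3079 and 2963 CPM at 72 h, above both wt libraries at 24 h and below both at 48 and 72 h. *rps7*∆ had 1731 and 1651 CPM at 24 h, 753 and 811 CPM at 48 h and 1124 and 1130.3 CPM at 72 h. *rps25*∆ had 1929.8 and 1788 CPM at 24 h, 2628 and 2797 CPM at 48 h and 1948 and 1919.8 CPM at 72 h. The wt libraries showed 8391 and 7497 CPM at 24 h, 6829 and 7144 CPM at 48 h and 7304 and 6595 CPM at 72 h, and at every time each library of *rpl38*∆, *rps7*∆ and *rps25*∆ was below both wt libraries. Averaged over the times, the log2 fold change of *TDH3* mRNA against wt was −3.15 ± 0.07 in *rps7*∆, −1.98 ± 0.07 in *rps25*∆, −0.99 ± 0.06 in *rpl38*∆ and −0.41 ± 0.06 in *rpl9a*∆ (± SE), and all 4 were called lower. In RNC-mRNA, *TDH3* reached 5624 and 5829.7 CPM at 24 h, 1464 and 1649 CPM at 48 h and 2924 and 2008 CPM at 72 h in *rps7*∆. The wt had 19442 and 18437 CPM at 24 h, 18069 and 17675 CPM at 48 h and 19099 and 25855 CPM at 72 h in this assay. The RNC-mRNA fold change in *rps7*∆ was −2.02 ± 0.32 at 24 h, −4.65 ± 0.36 at 48 h and −4.14 ± 0.35 at 72 h.

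*PGK1* encodes phosphoglycerate kinase, which makes the first ATP of the pathway. Its mRNA was higher than in wt at 24 h in both deletants of the large subunit. In mRNA, *rpl38*∆ had 1784 and 1808 CPM at 24 h, 802 and 761.8 CPM at 48 h and 751 and 800.2 CPM at 72 h. *rpl9a*∆ had 2782 and 2677 CPM at 24 h, 932 and 608 CPM at 48 h and 728.2 and 708 CPM at 72 h. In both strains all libraries at 24 h were above wt and all at 48 and 72 h below it. *rps7*∆ had 597 and 586 CPM at 24 h, 314 and 342 CPM at 48 h and 388 and 397 CPM at 72 h. In *rps25*∆ there were 664 and 613 CPM at 24 h, 536 and 549 CPM at 48 h and 233 and 222 CPM at 72 h, against 1185 and 1151 CPM at 24 h, 1231 and 1366 CPM at 48 h and 1532 and 1256 CPM at 72 h in wt. At 24 h *PGK1* was higher than in wt in *rpl38*∆ (0.73 ± 0.16) and in *rpl9a*∆ (1.53 ± 0.16), the largest of the 7 higher calls in mRNA. At 72 h it was called lower in every deletion strain, with −2.72 in *rps25*∆, −2.30 in *rps7*∆, −0.94 in *rpl9a*∆ and −0.93 in *rpl38*∆. At 48 h in *rpl9a*∆ the 2 libraries differed, and the fold change of −0.80 was −1.25 without replicate 1 and −0.45 without replicate 2, called in each case. The mean over the times in *rpl9a*∆, where the sign differed between 24 h and later, was −0.07 ± 0.09 and not called. In RNC-mRNA at 24 h, *rpl9a*∆ had 4138 and 3326 CPM, against 2075 and 2089 CPM in wt. The fold change of 0.996 ± 0.25 was called, but no longer without wt replicate 1 (0.98), wt replicate 2 (1.01) or *rpl9a*∆ replicate 1 (0.79).

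**Figure D3:**
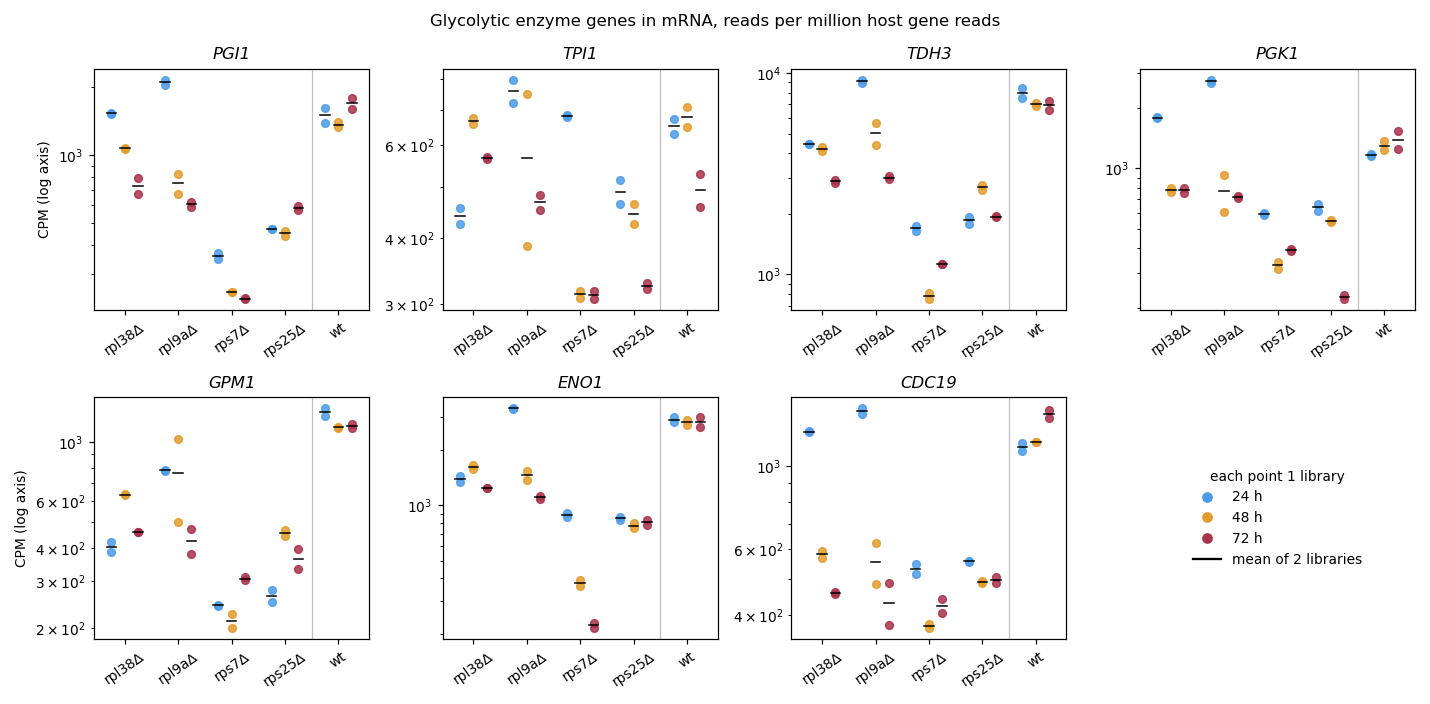
CPM of each glycolytic gene in mRNA (log axis, each panel with its own range), by strain, with 24 h in blue, 48 h in orange and 72 h in red. Each point is 1 library and each line the mean of 2 libraries. *PGK1* in *rpl9a*∆ reached 2782 and 2677 CPM at 24 h, against 1185 and 1151 CPM in wt. All *rps7*∆ libraries of *TDH3*, *GPM1*, *ENO1*, *PGK1*, *CDC19* and *PGI1* lie below all wt libraries. The share of all genes with such a gap was not computed, and 36.9% of all genes were called lower in *rps7*∆ over the times.

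*GPM1* encodes phosphoglycerate mutase, which moves the phosphate of 3-phosphoglycerate to the position needed for enolase. It was the one gene called lower than wt in all 12 mRNA tests, also in *rpl9a*∆ at 24 h. *rpl38*∆ had 421.95 and 388 CPM at 24 h, 633 and 637 CPM at 48 h and 462 and 461 CPM at 72 h. In *rpl9a*∆ there were 781 and 785 CPM at 24 h, 501 and 1027 CPM at 48 h and 472 and 381 CPM at 72 h. *rps7*∆ had 243 and 245 CPM at 24 h, 200.4 and 226 CPM at 48 h and 310.4 and 304 CPM at 72 h, the lowest of the strains at 24 and 48 h. In *rps25*∆ there were 278 and 251 CPM at 24 h, 443 and 470.1 CPM at 48 h and 398 and 333 CPM at 72 h. In wt there were 1258 and 1339.8 CPM at 24 h, 1131 and 1143 CPM at 48 h and 1172 and 1131 CPM at 72 h, above every library of the deletion strains at the same time. At 24 h the log2 fold change was −1.57 ± 0.17 in *rpl38*∆, −2.66 ± 0.18 in *rps7*∆ and −2.62 ± 0.18 in *rps25*∆. In *rpl9a*∆ at 24 h it was −0.42 ± 0.17 (edgeR, Benjamini-Hochberg adjusted p = 0.045), a call lost without any 1 of the 4 libraries, with values from −0.46 to −0.39. At 48 h in *rpl9a*∆, where replicate 2 was close to wt, the fold change of −0.67 was −0.30 without replicate 1 and −1.15 without replicate 2, still called. In RNC-mRNA, *GPM1* had 621 and 710.3 CPM at 24 h, 1109 and 1185 CPM at 48 h and 646 and 742 CPM at 72 h in *rps25*∆, against 3255 and 3237 CPM at 24 h, 3002 and 3016 CPM at 48 h and 2943 and 3728 CPM at 72 h in wt, with fold changes of −2.60 ± 0.35, −1.80 ± 0.34 and −2.62 ± 0.35.

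*ENO1* encodes enolase, which makes phosphoenolpyruvate. Its mRNA moved most widely over the groups, with its lowest group mean in *rps7*∆ at 72 h and its highest in *rpl9a*∆ at 24 h, with 3359 and 3355 CPM. *rps7*∆ had 903 and 858 CPM at 24 h, 361.6 and 393 CPM at 48 h and 215 and 229.4 CPM at 72 h. *rpl38*∆ had 1433 and 1342 CPM at 24 h, 1657 and 1565 CPM at 48 h and 1243 and 1237 CPM at 72 h. In *rps25*∆ there were 864 and 834 CPM at 24 h, 748 and 796 CPM at 48 h and 833 and 780.1 CPM at 72 h, a nearly flat course. The wt level was 2999 and 2823 CPM at 24 h, 2737 and 2916 CPM at 48 h and 3025 and 2672 CPM at 72 h, also nearly flat. Against wt, *ENO1* in *rps7*∆ had log2 fold changes of −1.97 ± 0.10 at 24 h, −3.62 ± 0.11 at 48 h and −4.16 ± 0.11 at 72 h. The last is the largest difference of any of the 7 genes in mRNA, and the same gene, strain and time gave the largest in RNC-mRNA, −4.93 ± 0.31, with 367 and 264 CPM in *rps7*∆, against 4778 and 5198 CPM in wt. The mRNA fold changes of *ENO1* in *rps25*∆ were −2.10, −2.08 and −1.92. In *rpl9a*∆ the gene was called as most of the set was, higher at 24 h (0.51 ± 0.10, not called with library size alone at 0.21) and lower at 48 h (−1.02 ± 0.10) and 72 h (−1.35 ± 0.10).

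*CDC19* encodes pyruvate kinase, the irreversible last step. In mRNA, *rpl38*∆ had 1231 and 1235 CPM at 24 h, 592 and 568 CPM at 48 h and 459 and 453 CPM at 72 h. *rpl9a*∆ had 1422 and 1372 CPM at 24 h, 622 and 483.1 CPM at 48 h and 485.9 and 376 CPM at 72 h. *rps7*∆ had 513 and 548 CPM at 24 h, 369 and 379 CPM at 48 h and 405 and 440.3 CPM at 72 h. In these 3 strains *CDC19* was called lower at 48 h and at 72 h than at 24 h. In *rps25*∆ there were 558 and 555 CPM at 24 h, 487 and 493 CPM at 48 h and 485 and 503.7 CPM at 72 h, against 1096 and 1148 CPM at 24 h, 1155 and 1159.9 CPM at 48 h and 1409 and 1339 CPM at 72 h in wt. At 72 h the log2 fold change of *CDC19* against wt was −2.18 ± 0.14 in *rps7*∆, −1.57 ± 0.13 in *rps25*∆, −1.67 ± 0.14 in *rpl38*∆ and −1.65 ± 0.13 in *rpl9a*∆, called lower in each. In RNC-mRNA the wt level at 72 h stood out, with 1138 and 1084 CPM at 24 h, 1344 and 1259 CPM at 48 h and 3193 and 2908 CPM at 72 h. The gain of 1.37 between 24 and 72 h in wt was called (edgeR, Benjamini-Hochberg adjusted p = 3.2e-04). At 72 h the RNC-mRNA of *CDC19* was 460.2 and 505 CPM in *rps7*∆, 531 and 474 CPM in *rps25*∆, 651 and 837 CPM in *rpl38*∆ and 793 and 1251 CPM in *rpl9a*∆, all below both wt libraries. The fold changes against wt were −3.62 ± 0.24 in *rps7*∆, −2.95 ± 0.23 in *rps25*∆, −2.41 ± 0.23 in *rpl38*∆ and −1.79 ± 0.22 in *rpl9a*∆. Without the *rpl9a*∆ library that stood apart, the value for *rpl9a*∆ was −2.31.

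**Figure D4:**
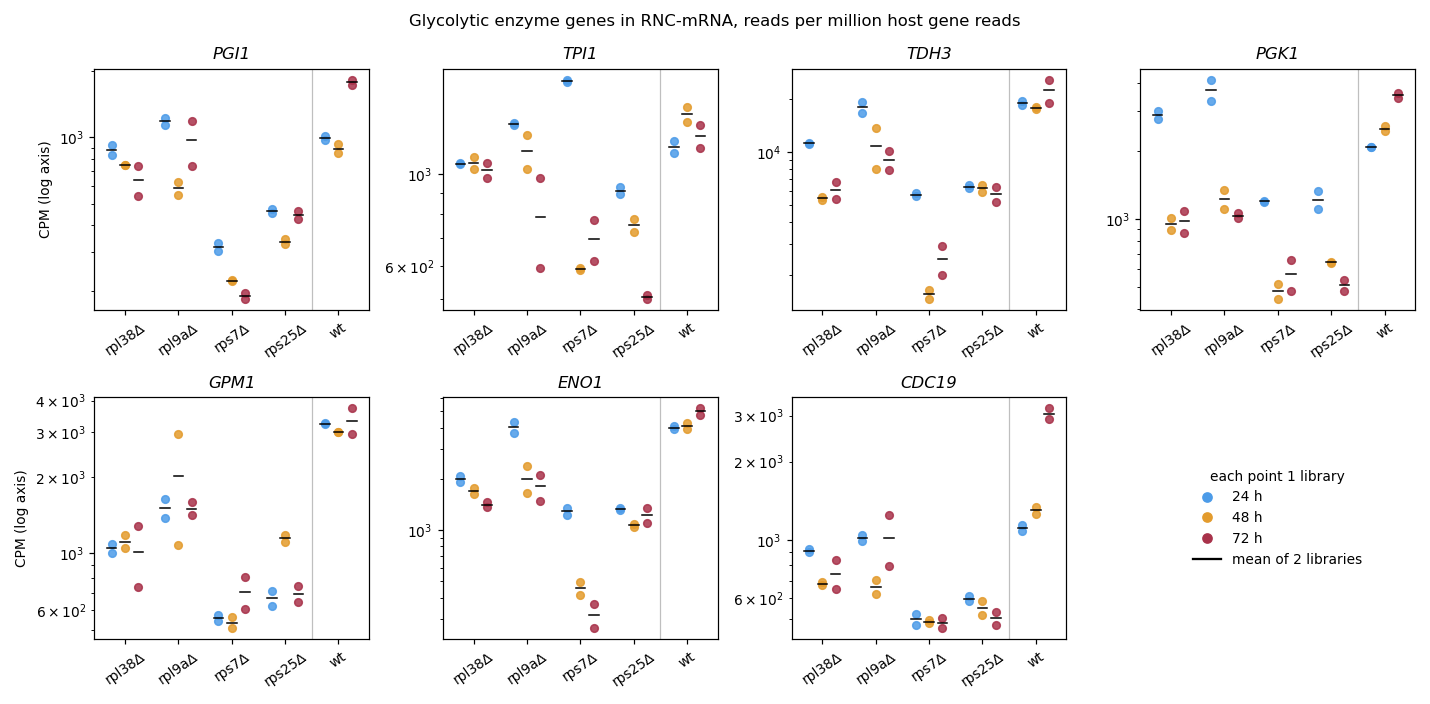
CPM of each glycolytic gene in RNC-mRNA (log axis, each panel with its own range), by strain, with 24 h in blue, 48 h in orange and 72 h in red. Each point is 1 library and each line the mean of 2 libraries; *CDC19* in wt reached 3193 and 2908 CPM at 72 h, above every other group, and *TPI1* was highest in *rps7*∆ at 24 h with 1686 and 1662 CPM.

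Within wt the mRNA of the set changed little with time. At 48 h 0 of 7 genes were called against 24 h, where 21.8% of all genes were, and at 72 h 2 of 7 were lower, *TDH3* (−0.38) and *TPI1* (−0.59), where 15.7% of all genes were lower. Both calls were lost when some single library was left out, *TDH3* without replicate 1 of 24 h (−0.28) or replicate 2 of 72 h (−0.28), and *TPI1* without any 1 of the 4 (−0.72 to −0.46). Against 24 h, *rpl9a*∆ had 7 of 7 genes lower in mRNA at 48 h, where 26.9% of all genes were lower, and 7 of 7 at 72 h, where 37.3% were. The changes at 72 h ran from −1.17 for *TPI1* to −2.40 for *PGK1*. *GPM1* at 48 h (−0.54) was no longer called without replicate 1 of 48 h (−0.17). In *rps7*∆, 7 of 7 were lower at 48 h and 6 of 7 at 72 h, beside 27.7% and 30.9% of all genes. *ENO1* had the largest of these, −2.40 at 72 h. *rpl38*∆ had 4 of 7 lower at 48 h and 5 of 7 at 72 h, beside 32.1% and 34.1% of all genes. *rps25*∆ went another way, with *TDH3* (0.56) and *GPM1* (0.80) higher at 48 h, where 20% of all genes were higher, and *PGK1* lower at 72 h (−1.45), where 21.9% were lower. Calls for 3 more genes in *rps25*∆ at 72 h, *GPM1* (0.50), *PGI1* (0.35) and *TPI1* (−0.55), were lost when some single library of the strain was left out, with *GPM1* at 0.38 without replicate 1 of 72 h and 0.42 without replicate 2 of 24 h, and *PGI1* and *TPI1* without any 1 of the 4. Of the 44 calls over time in mRNA, 7 were lost with library size alone. They were *TDH3* (−0.19) and *TPI1* (−0.40) in wt at 72 h, *TDH3* at 48 h (−0.08) and *ENO1* at 72 h (−0.16) in *rpl38*∆, and *GPM1* in *rpl9a*∆ at 48 h (−0.04), in *rps7*∆ at 48 h (−0.19, against −0.76 with TMM) and in *rps25*∆ at 72 h (0.46). It gained 3 higher calls, *GPM1* (0.65) and *TPI1* (0.60) in *rpl38*∆ at 48 h and *CDC19* in wt at 72 h (0.29).

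In RNC-mRNA over time, 13 of 14 tests in *rps7*∆, 12 of 14 in *rpl38*∆, 11 of 14 in *rpl9a*∆ and 4 of 14 in *rps25*∆ were called lower at 48 or 72 h than at 24 h. *GPM1* was the exception at both times in *rpl38*∆ and *rpl9a*∆ and at 72 h in *rps7*∆, and *CDC19* at 72 h in *rpl9a*∆. That value for *CDC19*, −0.45, was −0.97 and called lower without the library that stood apart, which made 12 of 14 in *rpl9a*∆, whereas with library size alone it was 0.0012 and not called. For *PGI1* in *rpl9a*∆ at 72 h the change of −0.74 was −1.27 without that library. The share of all genes called lower at 48 and 72 h was 26.1% and 26.3% in *rpl38*∆, 14.6% and 16.2% in *rpl9a*∆, 21.3% and 23.2% in *rps7*∆, and 12.4% and 9.54% in *rps25*∆. In wt, 0 of 14 were lower and *CDC19* and *PGI1* were higher at 72 h, where 7.01% of all genes were higher, although *PGI1* was not called on leaving out any 1 of the 4 libraries. The count of lower calls in RNC-mRNA, 40 over the 5 strains, depended on the scaling and was 26 with library size alone. *CDC19* in *rps7*∆ is an example. It had 519.9 and 474 CPM at 24 h, 496 and 479 CPM at 48 h and 460.2 and 505 CPM at 72 h, almost the same at each time, and the log2 fold change of −1.001 between 24 and 48 h is a change relative to the typical gene, which was −0.03 relative to host gene reads. For *TPI1* in *rpl38*∆ at 48 h against 24 h the direction itself turned, with −0.70 under TMM (no longer called without *rpl38*∆ replicate 1 of 48 h, −0.69) and 0.0077 with library size alone. *PGK1* was called lower in all 4 deletion strains at both later times under either scaling, and at 48 h its log2 fold change was −2.29 in *rps7*∆, −1.16 in *rps25*∆, −2.30 in *rpl38*∆ and −2.23 in *rpl9a*∆ under TMM.

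The fold change against wt itself was compared between 72 and 24 h in the same fits. It was lower at 72 h for 17 of 28 combinations of gene and strain in mRNA, where 25.7% of all genes were lower in *rps7*∆, 19.6% in *rps25*∆, 26.7% in *rpl38*∆ and 32.4% in *rpl9a*∆, and higher for 2, *TDH3* and *GPM1* in *rps25*∆, where 20% of all genes were higher. Neither of these 2 was called with library size alone (0.25 and 0.64). In RNC-mRNA it was lower for 20 of 28 and higher for 0, beside 17.8% of all genes lower in *rps7*∆, 8.89% in *rps25*∆, 16.8% in *rpl38*∆ and 8.5% in *rpl9a*∆. The largest of these in mRNA was *PGK1* in *rpl9a*∆, at −2.47 ± 0.23 (± SE), and in RNC-mRNA *ENO1* in *rps7*∆, at −3.01 ± 0.38, while *PGK1* in *rpl9a*∆ RNC-mRNA was −3.004 ± 0.35, and −3.17 without the library that stood apart.

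The amount of an mRNA in RNC-mRNA relative to its total mRNA was tested as 1 contrast over all 60 libraries, averaged over the times. Relative to the typical gene, 33 of the 35 combinations of gene and strain were higher in RNC-mRNA than in mRNA. With library size alone 27 were, since *PGI1* was then below 0 in every strain and *CDC19* was not called in *rps7*∆ (0.16), *rps25*∆ (0.098) and *rpl38*∆ (0.17). The share of all genes higher in RNC-mRNA was 34.9% in *rpl38*∆, 39.8% in *rpl9a*∆, 39% in *rps7*∆, 38.4% in *rps25*∆ and 38% in wt. In wt the log2 ratio of RNC-mRNA to mRNA was 2.13 ± 0.13 in *TDH3*, 2.12 ± 0.16 in *GPM1*, 1.76 ± 0.12 in *TPI1*, 1.74 ± 0.12 in *PGK1*, 1.30 ± 0.11 in *ENO1* and 1.13 ± 0.10 in *CDC19* (± SE). *PGI1* stood below these 6 with 0.31 ± 0.10 in wt, and its ratios in *rpl38*∆ (−0.09) and *rps7*∆ (0.17) were not called. With library size alone *PGI1* was called lower in RNC-mRNA than in mRNA in 4 strains, with −0.21 in *rps7*∆, −0.29 in *rps25*∆, −0.50 in *rpl38*∆ and −0.38 in wt, and was −0.17 and not called in *rpl9a*∆. In *rpl9a*∆ the *PGI1* ratio of 0.31 was 0.14 and not called without the library that stood apart. The call of *PGI1* in *rps25*∆ (0.23) was lost without any of 10 of the 12 libraries of that strain.

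Against wt, this ratio was lower in the deletion strains in 10 of 28 combinations of gene and strain and higher in 0. The median log2 difference over all genes was between −0.02 and 0.05. In *rpl38*∆ it was lower for *PGK1* (−0.89 ± 0.16), *TDH3* (−0.79 ± 0.18), *ENO1* (−0.62 ± 0.15) and *CDC19* (−0.55 ± 0.14), where 5.55% of all genes were lower. In *rps7*∆ it was lower for *PGK1* (−0.64 ± 0.16), *CDC19* (−0.59 ± 0.14) and *ENO1* (−0.46 ± 0.15), beside 7.88% of all genes. *rps25*∆ had *CDC19* (−0.51 ± 0.14) and *TPI1* (−0.47 ± 0.17) lower, with 8.03% of all genes lower. In *rpl9a*∆ only *PGK1* was lower (−0.71 ± 0.16), where 3.02% of all genes were. *PGK1* was thus called in 3 of the 4 strains and was −0.43 ± 0.16 in *rps25*∆. The calls of *ENO1* in *rps7*∆ and of *TPI1* in *rps25*∆, with adjusted p-values of 0.032 and 0.047 from edgeR (Benjamini-Hochberg), were lost on leaving out any of 12 and any of 20 of the 24 libraries compared. With library size alone 5 of the 10 were called, and *ENO1* and *CDC19* in *rpl38*∆ and *rps7*∆ and *TPI1* in *rps25*∆ were not. Without the *rpl9a*∆ library that stood apart there were 17 calls, and *PGK1* in *rpl9a*∆ was −0.76. With the RNC-mRNA and mRNA library of the same strain, time and replicate number as a block there were 14, the 10 above and *GPM1* (−0.61) and *TPI1* (−0.42) in *rpl38*∆, *GPM1* in *rps7*∆ (−0.49) and *PGK1* in *rps25*∆ (−0.44).

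**Figure D5:**
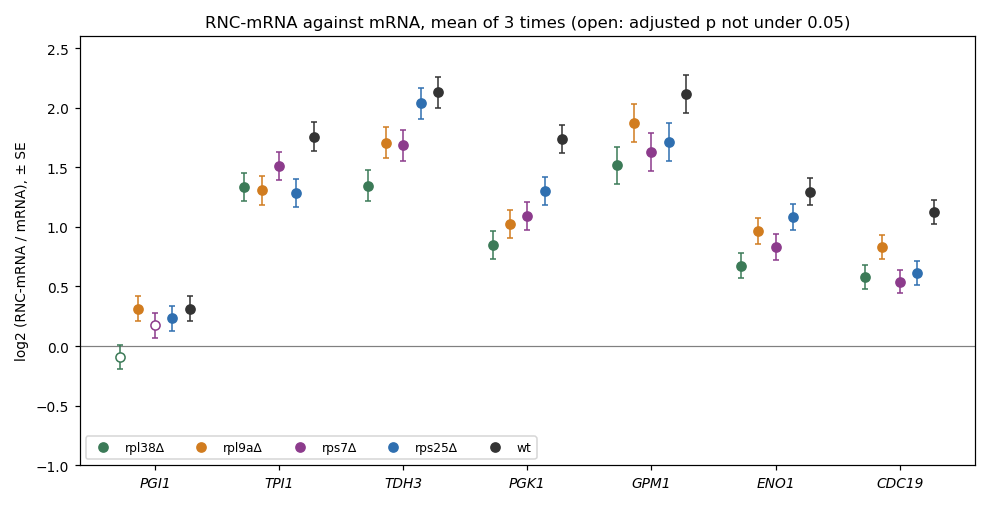
Log2 ratio of RNC-mRNA to mRNA for each glycolytic gene (± SE, mean of the 3 times, edgeR with TMM over all 60 libraries), by strain with wt at the right of each gene. Open points have an adjusted p of 0.05 or more; *PGI1* lies between −0.09 and 0.31, and *TDH3* in wt at 2.13.

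The ratio of RNC-mRNA to mRNA of *CDC19* was also followed within each strain over time. This contrast was added after the values had been seen. Between 24 and 72 h the log2 ratio rose by 1.08 ± 0.24 in *rpl38*∆, 1.67 ± 0.24 in *rpl9a*∆ and 1.23 ± 0.24 in wt, all called, where 12.3%, 22.1% and 2.29% of all genes had a called rise in these 3 strains. It was −0.05 ± 0.24 in *rps7*∆ and −0.26 ± 0.24 in *rps25*∆, neither called. In wt the rise came with a gain of *CDC19* RNC-mRNA (1.37), while its mRNA changed by 0.10, not called. In *rpl38*∆ and *rpl9a*∆ the *CDC19* mRNA was called lower at 72 h than at 24 h. Its RNC-mRNA did not rise there, with −0.75 in *rpl38*∆, called lower, and −0.45 in *rpl9a*∆, not called. At 72 h the difference of the ratio from wt was −1.41 ± 0.24 in *rps7*∆ and −1.37 ± 0.24 in *rps25*∆, called in both strains, whereas the difference between the rises was not tested. In *rpl9a*∆ the rise without the library that stood apart was 1.18. Of the other 6 genes *PGI1* alone had a called rise, in *rpl9a*∆ (1.48, and 0.98 without that library). *GPM1* in *rpl9a*∆ was called too with the block (0.83), and *PGI1* in *rpl38*∆ with library size alone (0.60). In *rps7*∆ the ratio fell for *TDH3* (−0.94) and *PGK1* (−0.79), which was not called. Both falls were called with the block (−0.99 and −0.83).

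Levels were compared between the genes per length, using the deposited RPKM. *TPI1* is left out of this, since its listed length is 2 bases and its RPKM is not comparable with the others. *TDH3* had the highest RPKM of the remaining 6 genes in all 30 libraries of each assay, with a median of 3018 in mRNA. *ENO1* followed with 947, then *GPM1* with 618, *PGK1* with 592, *PGI1* with 402 and *CDC19* with 364. Below *TDH3* the neighbours in this order changed places between groups. *GPM1* was above *PGK1* in both libraries of 8 of the 15 groups, below it in 4 and on both sides in 3, and *PGI1* was above *CDC19* in 10 and below in 5. In RNC-mRNA the medians were 6661 for *TDH3*, 1475 for *GPM1*, 1188 for *ENO1*, 886 for *PGK1*, 449 for *CDC19* and 407 for *PGI1*. In this assay *PGK1* was above *CDC19* in all 30 libraries, and *PGI1* was the lowest of the 6 in 27 of 30.

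Across the 30 mRNA libraries the levels of the 7 genes were positively correlated in every pair. The Pearson correlation of log2 CPM (TMM) between 2 of the genes was between 0.700, for *GPM1* and *TPI1*, and 0.964, for *TDH3* and *ENO1*, with a median of 0.881 over the 21 pairs. In the 30 RNC-mRNA libraries it was between 0.707 and 0.978 with a median of 0.904, for the same lowest and highest pair. These points share strains, times and the scaling of their libraries. Correlations between pairs of other host genes were not computed for comparison. Among 5221 other host genes, those most like the set in mRNA were Pipas_chr2-1_0238, with a mean correlation with the 7 genes of 0.920, and Pipas_chr4_0624 with 0.917. The least alike were Pipas_chr2-1_0546 with −0.864 and Pipas_chr2-1_0747 with −0.858. The tables used here give no names for these IDs.

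The 86 ribosomal protein genes listed by the study, another abundant group of mRNAs, give a reference for the set. In *rps25*∆ mRNA at 72 h, 2 of the 86 were lower and 41 higher than in wt (median log2 fold change 0.49). Of all genes, 24.3% were lower and 26.2% higher there, and all 7 glycolytic genes were lower (median −1.75). At 48 h in *rps25*∆, 26 of the 86 were lower and 14 higher (median −0.17), where 28.2% and 25% of all genes were. All 7 glycolytic genes were lower at 48 h too (median −1.52). In *rps7*∆ at 24 h, 25 of 86 were lower (median −0.30), beside 6 of 7 glycolytic genes (median −1.97). At 72 h in *rps7*∆, 84 of 86 were lower (median −2.03), and the 7 glycolytic genes had a median of −2.38. In *rpl9a*∆ at 72 h all 86 were lower (median −2.33), beside 6 of 7 glycolytic genes (median −1.35). In *rpl38*∆ at 72 h, 84 of 86 were lower (median −1.70), beside 6 of 7 glycolytic genes (median −1.28). In mRNA, 30% and 32.6% of all genes were lower in *rps7*∆ at 24 and 72 h. At 72 h the share was 32.5% in *rpl9a*∆ and 32% in *rpl38*∆. In RNC-mRNA at 72 h, all 86 were lower in *rpl38*∆ (median −2.29) and 85 in *rps7*∆ (median −2.77), where 23.3% and 23.5% of all genes were. In *rps25*∆ 4 of the 86 were lower (median 0.01), beside 14.5% of all genes. All 7 glycolytic genes were lower in each of these strains (medians −2.20, −3.62 and −2.39 in this order). In RNC-mRNA of *rpl9a*∆ at 72 h, 2 of 86 were lower (median −0.34), beside 7 of 7 glycolytic genes (median −1.55). These values include the library that stood apart, and 6.3% of all genes were lower. The 86 genes made up 10.2% of host gene reads in that library and 2.74% in replicate 1 of its group, against 6.55% and 7.56% in wt. Their count and median in *rpl9a*∆ thus depend on that library, and were not computed without it. The medians of all genes tested in these comparisons were between −0.03 and 0.10. Within wt mRNA, 68 of the 86 ribosomal protein genes were lower at 72 h than at 24 h (median −0.80). The same held for 2 of the 7 glycolytic genes (median −0.22) and for 15.7% of all genes. The difference between the lists was not tested.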

How the data were processed

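The deposited tables of the 60 libraries hold, per host gene, the read count and the RPKM that the authors computed from it. Counts are as deposited, not normalized, and RPKM divides the count by the listed length and the depth of the library. The study's methods describe poly-A selected RNA sequenced on an Illumina instrument and, for RNC-seq, RNA from ribosome–nascent chain complexes pelleted through sucrose. Basecalling used bcl2fastq 2.17 per the submitters' processing notes. What aligned and counted the reads, and on which build, is not stated in the labels, headers or methods used here. There are 451 genes with 2 or 3 entries, among them *TPI1*, whose listed length is 2 bases. The listed lengths of the others were not checked. A listed length that is partial affects RPKM and not counts.

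Samples were grouped by the strain, time and assay in their labels, with 2 replicates a group. Genes were kept if they had more than 10 reads in at least 2 libraries of the fit. This removed 91 of 5319 genes in mRNA and 110 in RNC-mRNA. Counts were tested with edgeR 4.0.16 (R 4.3.3) with TMM scaling and a quasi-likelihood fit over the 30 libraries of an assay. The fit had 1 coefficient per group, and p-values had Benjamini-Hochberg adjustment over all genes tested. The ratio of RNC-mRNA to mRNA came from 1 fit over all 60 libraries (5240 genes). The residual degrees of freedom were 15 per assay and 30 for the ratio, and the biological coefficient of variation was 10.8% in mRNA, 20.9% in RNC-mRNA and 16.2% over both. The median depth was 6595444 host gene reads in mRNA. CPM was computed on host gene reads. The p-values rest on the spread between replicate libraries, with the dispersion of a gene fitted over all groups of a fit. They do not measure the spread between clones of a deletion. The main fit of the ratio took the libraries of both assays as independent, although each sample was split. The code was tested on simulated data.

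The genes were named by the selection, which fixes all 7 for description. The members, and the list of ribosomal protein genes, were chosen with earlier results of these data known. The contrast of the ratio between 72 and 24 h within a strain was added after the values had been seen. As alternatives, other filters, DESeq2 1.42.0 (its size factors and its Wald test), scaling by library size alone, the replicate number as a block, fits with only the 2 strains compared, TMM-scaled CPM, and leaving out each library were tried. No per-sample column was left out. No sequence is shown.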

Additional observations from a re-analysis of the deposited data

Results flagged for a closer look

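For 39 combinations of gene, deletion strain and assay (19 in mRNA and 20 in RNC-mRNA), the difference from wt was not the same at 72 h as at 24 h by edgeR's test of that contrast (log2 fold change at 72 h minus that at 24 h). A negative value means that the gene was lower relative to wt at 72 h than at 24 h. In mRNA, 17 of 28 were negative and 2 positive. In *rpl38*∆ the change was −1.42 for *PGI1*, −0.61 for *TDH3*, −1.66 for *PGK1* and −1.92 for *CDC19*. In *rpl9a*∆ it was −2.25 for *PGI1*, −1.68 for *TDH3*, −2.47 for *PGK1*, −0.98 for *GPM1*, −1.85 for *ENO1* and −2.27 for *CDC19*. In *rps7*∆ it was −1.03 for *PGI1*, −0.96 for *TPI1*, −0.62 for *TDH3*, −1.08 for *PGK1*, −2.19 for *ENO1* and −0.85 for *CDC19*. In *rps25*∆ only *PGK1* was called negative (−1.52), and the change was positive for *TDH3* (0.48) and *GPM1* (0.86), a change that was called for neither with library size alone (0.25 and 0.64). That scaling instead called *TPI1* in *rpl38*∆ (0.77) and *CDC19* in *rps25*∆ (−0.46). The positive call of *TDH3* was lost without wt replicate 1 of 24 h (0.38), wt replicate 2 of 72 h (0.38) or *rps25*∆ replicate 2 of 24 h (0.41).

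In RNC-mRNA, 20 of 28 were negative and 0 positive. The change in *rpl38*∆ was −1.67 for *PGI1*, −1.50 for *TDH3*, −2.68 for *PGK1*, −1.20 for *ENO1* and −2.12 for *CDC19*. The change in *rpl9a*∆ was −1.50 for *PGI1*, −1.26 for *TPI1*, −1.63 for *TDH3*, −3.004 for *PGK1*, −1.86 for *ENO1* and −1.82 for *CDC19*. Without the *rpl9a*∆ library that stood apart, these 6 values were −2.03, −1.04, −1.95, −3.17, −2.29 and −2.34 in this order, each still called. *rps7*∆ had −2.24 for *PGI1*, −2.01 for *TPI1*, −2.12 for *TDH3*, −2.48 for *PGK1*, −3.01 for *ENO1* and −2.16 for *CDC19*. *rps25*∆ had −0.98 for *TPI1*, −2.06 for *PGK1* and −1.75 for *CDC19*. *PGK1* was called negative in all 4 strains in both assays, and *ENO1* in *rps7*∆ gave the most negative value in RNC-mRNA. Of the 20, 4 were lost when some single library was left out. They were *TDH3* and *ENO1* in *rpl38*∆, *TDH3* in *rpl9a*∆ and *TPI1* in *rps25*∆, all 4 of them lost without wt replicate 2 of 72 h, which gave −1.19, −1.06, −1.31 and −0.81 in this order. Apart from *TDH3* in *rpl38*∆, each was also lost without certain other single libraries. The cause of these differences was not tested.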

How the results depend on the processing

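With 2 libraries a group and a coefficient of variation of 20.9% in RNC-mRNA, small changes in that assay were not detectable, and its calls depended more on single libraries than those of mRNA. Leaving out 1 library at a time ended the call in 177 of 2888 refits of single-gene values and turned no called direction. It gave 0 to 1 higher calls against wt in RNC-mRNA, 2 to 6 (mRNA) and 1 to 3 (RNC-mRNA) higher calls over time, and 8 to 17 lower ratios than wt, where 1, 4, 2 and 10 were found with all libraries. Among values not called, it moved *TPI1* mRNA in *rpl38*∆ at 72 h between −0.0025 and 0.26, the mean of *PGK1* mRNA in *rpl9a*∆ between −0.22 and 0.051, and the *CDC19* ratio change in *rps7*∆ between −0.11 and 0.017. Scaling by library size alone ended 49 of 387 single-gene calls and made 13 others. With it, 4 genes and strains instead of 7 were called higher than wt in mRNA and 2 instead of 1 in RNC-mRNA, 26 instead of 40 were lower over time in RNC-mRNA, and 5 instead of 10 had a lower ratio than wt. It turned *TPI1* RNC-mRNA in *rpl38*∆ at 48 h against 24 h (0.0077) and the *PGI1* ratio in wt (−0.38), *rpl9a*∆ (−0.17) and *rps25*∆ (−0.29), of which wt and *rps25*∆ were then called lower. Of values not called, it turned *TPI1* mRNA in *rps7*∆ at 24 h (0.065), *CDC19* RNC-mRNA in *rpl9a*∆ at 72 h against 24 h (0.0012), the *PGI1* ratio in *rps7*∆ (−0.21, then called lower) and the *CDC19* ratio change in *rps7*∆ (0.29). DESeq2's Wald test called 16 ratios lower than wt, and fits of 2 strains only called 0 higher in RNC-mRNA. The cause of these shifts was not tested. The other counts stayed within 1.5 times the values given, under these settings, DESeq2 size factors and other filters. Group means of TMM-scaled CPM differed from CPM by more than 1 SD in 151 of 210 cases. Deviations of same-numbered libraries of strain and wt correlated at −0.08 to 0.18 in mRNA, above 0.1 in 2 of 12 pairs. In RNC-mRNA they correlated at −0.14 to 0.08, above 0.1 in 0 of 12. These values do not decide whether the replicate numbers pair strain and wt. The study split each sample for both assays, so an RNC-mRNA and an mRNA library of the same strain, time and number may come from 1 culture, although the labels do not tie them. Their deviations correlated at −0.21 to 0.86, above 0.1 in 4 of 15 groups. With the block (the number within an assay, this pair for the ratio) 1 of 387 calls was lost (*GPM1* mRNA in *rpl9a*∆ at 24 h, −0.42) and 11 were gained, 10 of them in the ratio and 1 in RNC-mRNA (*GPM1* in *rpl9a*∆ at 48 h, −0.98).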
